A study of Danio rerio with 12 samples.

Results

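Proteasome subunit genes were examined in sorted zebrafish embryonic macrophages. Members were all genes whose symbol began with psma, psmb, psmc or psmd followed by a digit, apart from the immunoproteasome symbols psmb8a, psmb9a, psmb9b, psmb12, psmb13a and psmb13b. This rule took 45 of the 35117 gene IDs: 20 encode subunits of the core particle, 21 encode subunits of the regulatory particle, and 4 encode no structural subunit. Macrophages were sorted by GFP from embryos carrying tg(mpeg-GFP), a reporter driven by the macrophage promoter mpeg, at 28 and 50 h post-fertilisation (hpf). Control embryos were wild type for both csf1r genes, and csf1rDM embryos carried csf1ra j4e1/j4e1 with csf1rb re01/re01, alleles of the paralogous receptors for colony stimulating factor 1. Each of the 4 groups had 3 libraries, made from pools of 35 embryos. The exception was csf1rDM at 50 hpf with 70 embryos a pool, where pool size cannot be told apart from group. No label states that pools came from separate clutches, so p-values measure only the spread between these libraries, which may be technical.

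The proteasome degrades proteins that carry ubiquitin chains. Its core particle is a barrel of stacked rings: the outer rings of alpha subunits gate the entrance, and the inner rings of beta subunits hold the catalytic sites. The regulatory particle caps the barrel. Its base contains a ring of ATPases that unfold substrates, together with large scaffold and ubiquitin-receptor subunits, and its lid carries the deubiquitinase psmd14. Macrophages use proteasomes for general protein turnover and for signalling, and in mammals interferon induces alternative catalytic subunits, the immunoproteasome.

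Totals ranged from 8641139 to 20261650 counts per library. Expression is given as CPM, the counts of a gene scaled to a common library size with TMM, which corrects for differences in library composition. Because no gene lengths were used, levels were compared between groups. The shares of gene copies and the ratios of particle sums below depend on gene length and serve only to compare groups. The main mpeg1 ID ranged from 2437 to 4989 CPM in the 12 libraries, and the 18 macrophage marker IDs, 17 of them tested, summed to between 16410 and 27470 CPM. Transcripts of csf1ra ranged from 214 to 235 CPM in control and from 239 to 301 CPM in csf1rDM libraries at 28 hpf, and from 350 to 445 and from 339 to 405 CPM at 50 hpf. Those of csf1rb ranged from 135 to 161 CPM in control and from 61.4 to 97.8 CPM in csf1rDM libraries at 28 hpf, and from 257 to 441 and from 153 to 214 CPM at 50 hpf. Single libraries stood apart in the 7 skeletal muscle IDs. At 28 hpf they summed to between 7.45 and 12.2 CPM in control libraries, but to 80.4, 522.1 and 2487 CPM in those of csf1rDM. At 50 hpf the sums were 3073, 2689 and 5.88 CPM for control, and 11.9, 8.93 and 4290 CPM for csf1rDM. Muscle transcripts were therefore higher in every csf1rDM than in every control library at 28 hpf, while the groups at 50 hpf overlapped. The 4 libraries with a sum over 1000 CPM were left out in an added fit, given with each count below. In bulk RNA, fewer cells of a type and less RNA per cell cannot be told apart.

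Proteasome subunit transcripts were lower in csf1rDM than in control macrophages at both stages, and lower at 50 than at 28 hpf in both genotypes. Over the 39 structural subunits that were tested, the summed level at 28 hpf was 5933, 6242 and 6124 CPM in control libraries, against 5056, 4708 and 4862 CPM in csf1rDM. At 50 hpf it was 4387, 5187 and 5040 CPM in control and 3541, 4025 and 3766 CPM in csf1rDM. Within each stage every csf1rDM library lay below every control library. The means differed by 20.1% at 28 hpf and by 22.5% at 50 hpf, and the decline with age was 20.1% in control and 22.5% in csf1rDM. The mean of csf1rDM at 28 hpf (4875 ± 174 CPM, SD, n = 3) lay within the spread of control at 50 hpf (4871 ± 426 CPM, SD, n = 3). csf1rDM at 50 hpf was 38.1% below control at 28 hpf. These sums are descriptions with no test. Control replicate 1 at 50 hpf held the lowest value of its group in 35 of the 39 subunits. Other libraries shifted many subunits together too. In csf1rDM at 50 hpf replicate 2 was highest in 30 and replicate 1 lowest in 27, and control replicate 1 at 28 hpf was lowest in 28. Calls of single members are thus not separate observations.

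**Figure D1:**
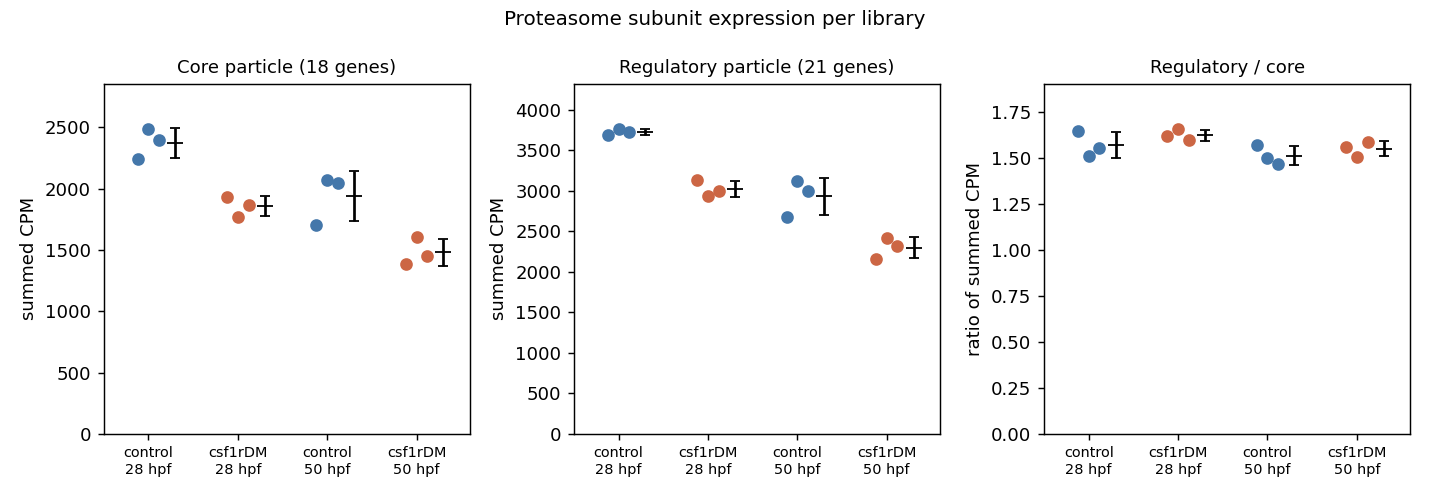
Summed CPM of the tested core particle genes (left) and regulatory particle genes (middle), and the ratio of both sums (right), for each of the 12 libraries (points; blue control, orange csf1rDM) with the group mean and SD beside them. Both sums step down with genotype and with age, and the ratio, from 1.47 to 1.66, overlaps between the genotypes at each stage.

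At 28 hpf, 21 of the 43 tested members fell in csf1rDM at an adjusted p under 0.05 (edgeR quasi-likelihood test, Benjamini-Hochberg over 16429 genes). Of all tested genes, 10.9% were lower by the same criterion, and of the 8552 genes with a mean of at least 10 CPM, a group in which most members lie, 16.4% were. The median log2 fold change of members was -0.31, against 0.02 for all tested genes. The groups did not overlap, with every csf1rDM library below every control library, for 33 of 43 members and for 21.8% of all genes. Among members psmb10 alone had its libraries separated in the other direction, with a log2 fold change of 0.56 that did not pass (adjusted p = 0.108, edgeR), and 9.66% of all genes were called higher. The thresholds stated by the study, an adjusted p under 0.01 with a log2 fold change beyond 1, were passed by 4.08% of genes and by 1 member, psmc3ip. With 1 library left out the median stayed between -0.403 and -0.282, while the call count varied. The count was 12, 9 and 10 without control replicate 1, 2 or 3, and 27, 9 and 24 without csf1rDM replicate 1, 2 or 3. It was 8 without the libraries high in muscle transcripts, where the median was -0.35.

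At 50 hpf, 23 of 43 members fell in csf1rDM and 1, psmb10, rose, against 11.4% of all genes lower, 17.6% of genes with at least 10 CPM lower, and 8.44% of all genes higher. The median log2 fold change of members was -0.39 and that of all tested genes -0.02. Libraries of csf1rDM lay below all control libraries for 28 members and for 20.5% of all genes. No member reached the fold limit of the study, since the largest change was 0.72 on the log2 scale, while 5.33% of genes passed those thresholds. The 24 calls became 11 without control replicate 2 and 12 without control replicate 3, and 6 without the libraries high in muscle transcripts, which left 1 control library at this stage, assumed to vary like the other groups. The median was then -0.46. Without control replicate 1 the count was 28, and without csf1rDM replicate 1, 2 or 3 it was 17, 25 and 21.

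Of the 39 structural subunits, 16 fell in csf1rDM at both stages, 4 passed at 28 hpf alone, 7 at 50 hpf alone and 12 at neither. Of all tested genes, 6.43% were called lower at both stages. The calls were not equally firm. Among all members, 9 of 21 calls at 28 hpf and 11 of 24 at 50 hpf held with each library left out. The difference between the stages was itself tested as an interaction. It passed for 0 of 43 members, by edgeR and by DESeq2, and for 0.919% of all genes by edgeR. At an unadjusted p under 0.05 there was 1 member, and 12.9% of all genes. That member was psmd3, a lid subunit, with log2 fold changes of -0.06 at 28 hpf and -0.39 at 50 hpf (interaction -0.33, adjusted p = 0.311, edgeR). The sign of the genotype effect was the same at both stages for 37 of 39 subunits and for 72.5% of all tested genes. No library enters both genotype comparisons. Within a comparison the subunits share their libraries, so they are not separate observations. Across the 39 subunits, Pearson's r between the log2 fold changes at both stages was 0.80 and Spearman's rho was 0.62. Without psma6l and psmb10 both were 0.60 over 37 subunits.

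**Figure D2:**
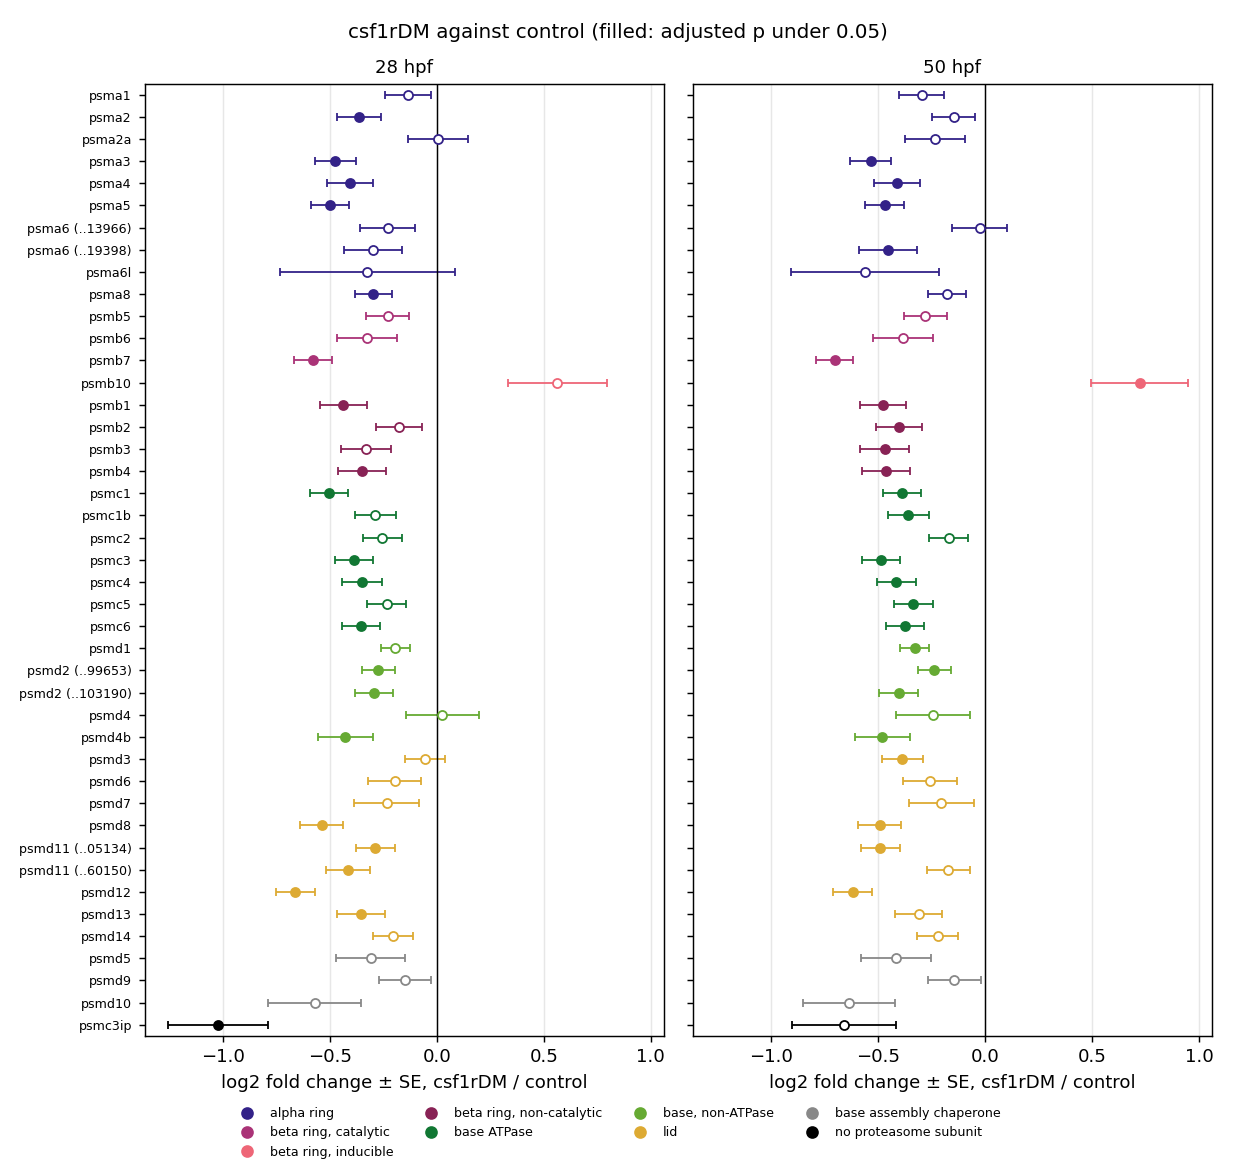
Log2 fold change of csf1rDM over control (x axis, ± SE) for each tested member, grouped by role in the complex, at 28 hpf (left) and 50 hpf (right); filled points had an adjusted p under 0.05. Nearly all points lie left of 0, psmb7 and psmd12 farthest among the structural subunits, and psmb10 lies to the right at both stages.

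Core and regulatory particle differed little in their response to genotype. At 28 hpf 8 of 18 tested core subunits and 12 of 21 regulatory subunits fell, with median log2 fold changes of -0.33 and -0.29. At 50 hpf 9 core and 14 regulatory subunits fell, with medians of -0.41 and -0.36. Shares of all tested genes called lower were 10.9% at 28 hpf and 11.4% at 50 hpf. The medians thus differed by 0.04 and 0.05 on the log2 scale, and these differences were not tested. Single libraries of a group varied in their regulatory minus core value with an SD of 0.04, which is not the error of a difference between groups. Summed core expression was 21.8% lower in csf1rDM at 28 hpf and 23.7% lower at 50 hpf, and summed regulatory expression 19.0% and 21.6% lower. The ratio of regulatory to core sums was 1.57 ± 0.07 in control and 1.62 ± 0.03 in csf1rDM at 28 hpf, and 1.51 ± 0.05 and 1.55 ± 0.04 at 50 hpf (SD, n = 3 each). These ranges overlapped at both stages.

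Among the constitutive catalytic subunits psmb5, psmb6 and psmb7, psmb7, which carries the trypsin-like site, changed most. It was measured at 254, 288 and 285 CPM in control and 189.7, 181 and 183 CPM in csf1rDM at 28 hpf, and at 166, 202 and 194 CPM in control and 117, 110.5 and 119 CPM in csf1rDM at 50 hpf. The groups were separated at each stage, and csf1rDM at 28 hpf overlapped control at 50 hpf. Its log2 fold change by genotype was -0.58 ± 0.09 (SE) at 28 hpf and -0.70 ± 0.09 at 50 hpf (adjusted p = 6.39e-04 and 1.38e-04, edgeR), and both calls held with each library left out in turn. psmb5, with the chymotrypsin-like site, had 229, 247 and 236 CPM in control and 211, 193 and 204 CPM in csf1rDM at 28 hpf, and 153, 193 and 203 against 145, 162 and 146 CPM at 50 hpf. Its libraries were separated at 28 hpf and overlapped at 50 hpf, and neither difference passed (-0.23 ± 0.10 and -0.28 ± 0.10, adjusted p = 0.133 and 0.0724). psmb6, with the caspase-like site, also did not pass by genotype (-0.33 ± 0.14 and -0.38 ± 0.14, adjusted p = 0.119 and 0.0732).

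The non-catalytic beta subunits psmb1, psmb2, psmb3 and psmb4 complete the inner rings. psmb1 and psmb4 fell at both stages, by 0.44 and 0.35 at 28 hpf and by 0.48 and 0.46 at 50 hpf on the log2 scale. With a library left out, psmb1 was called in 3 of 6 fits at 28 hpf and 5 of 6 at 50 hpf. psmb4 was called in 1 of 6 and 4 of 6. psmb2 and psmb3 passed at 50 hpf alone, where all 4 fell by 0.40 to 0.48. The interaction was not significant for any of them (lowest adjusted p = 0.605, for psmb2).

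In the alpha rings, 5 of 10 genes fell at 28 hpf and 4 at 50 hpf, beside 10.9% and 11.4% of all tested genes. psma3, psma4 and psma5 were in both counts. psma3, whose tail helps to close the gate of the barrel, had 236, 284 and 249 CPM in control and 193, 174 and 188 CPM in csf1rDM at 28 hpf, and 188, 229.5 and 220.3 against 144.5, 153 and 143 CPM at 50 hpf. The groups did not overlap within a stage, and the log2 fold changes were -0.47 ± 0.10 and -0.53 ± 0.10 (adjusted p = 0.00394 and 0.00177). psma5 had 224, 244 and 232 CPM in control and 169.5, 163 and 162 CPM in csf1rDM at 28 hpf, and 161, 195 and 189 against 126, 142 and 125 CPM at 50 hpf. It was likewise separated within each stage (-0.50 ± 0.09 and -0.47 ± 0.09, adjusted p = 0.00183 and 0.00252). psma8, in mammals a testis form of the alpha4 subunit and here the one member of that type since the rule matched no psma7, fell at 28 hpf (-0.30 ± 0.09, adjusted p = 0.0296) and was not called at 50 hpf (-0.18 ± 0.09, adjusted p = 0.182). The call at 28 hpf was kept in 2 of 6 fits with a library left out, and the interaction of 0.12 did not pass.

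In the base, all 7 genes of the ATPase ring had negative log2 fold changes at both stages, from -0.50 to -0.23 at 28 hpf and from -0.49 to -0.17 at 50 hpf. 4 of them fell at 28 hpf (psmc1, psmc3, psmc4 and psmc6) and 6 at 50 hpf, all but psmc2. At these stages 10.9% and 11.4% of all tested genes were lower. psmc3 was at 153, 145 and 149 CPM in control and 116, 113 and 113 CPM in csf1rDM at 28 hpf, and at 98.8, 115 and 117 against 73.0, 84.2 and 78.8 CPM at 50 hpf. Its groups were separated at both stages (-0.39 ± 0.09 and -0.49 ± 0.09, adjusted p = 0.00875 and 0.00210). Of the 5 other base genes, 3 fell at 28 hpf and 4 at 50 hpf. Both IDs of psmd2, a scaffold that binds ubiquitin-like shuttle domains, fell at both stages, by 0.27 and 0.29 and then by 0.24 and 0.40 on the log2 scale. With a library left out, ENSDARG00000099653 was called in 2 of 6 fits at 28 hpf and 1 of 6 at 50 hpf. ENSDARG00000103190 was called in 2 of 6 and 6 of 6. psmd1, the other scaffold, passed at 50 hpf alone (-0.33 ± 0.07, adjusted p = 0.00437; -0.19 ± 0.07 and adjusted p = 0.0612 at 28 hpf).

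In the lid, 5 of 9 genes fell at 28 hpf and 4 at 50 hpf, beside 10.9% and 11.4% of all tested genes. psmd12, a scaffold subunit of the lid, had the largest decline of any structural subunit at 28 hpf, with 158, 169.6 and 151 CPM in control and 107, 105 and 90.8 CPM in csf1rDM. At 50 hpf it was at 112, 125 and 118 CPM in control and 75, 75.4 and 80.8 CPM in csf1rDM. No csf1rDM library reached a control library of its stage (-0.66 ± 0.09 and -0.62 ± 0.09, adjusted p = 3.46e-04 and 4.91e-04). Both calls were kept with each library left out in turn. psmd8, which locks the lid to the base late in assembly, had 170.2, 176 and 184 against 126.5, 121.5 and 117 CPM at 28 hpf and 111, 144 and 130.2 against 89.5, 97.4 and 86.5 CPM at 50 hpf. It fell by 0.54 and 0.49 on the log2 scale (SE 0.10 each, adjusted p = 0.00227 and 0.00365). The deubiquitinase psmd14 (-0.21 and -0.22, adjusted p = 0.145 and 0.121) and its partner psmd7 (-0.23 and -0.20, adjusted p = 0.307 and 0.397) were not called at either stage.

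With age, subunit transcripts fell in both genotypes. In control macrophages 22 of 43 members were lower and 1, psma6l, was higher at 50 than at 28 hpf, against 11.4% of all genes lower, 19.3% of genes with at least 10 CPM lower and 12% of all genes higher. In csf1rDM 24 were lower and 2, psma6l and psmb10, higher, against 14.4%, 24.0% and 13.3%. psma6l entered the test only through its 50 hpf libraries, so its calls are no support for a rise. Median log2 fold changes of members were -0.32 and -0.33, beside 0.06 and 0.04 for all tested genes. The later libraries lay below all earlier ones for 31 members in control, where 23.0% of all genes did so, and for 29 members in csf1rDM, where 18.6% did. The thresholds of the study were passed by psma6l and psmc3ip alone in each genotype, and by 6.29% of genes in control and 8.24% in csf1rDM. Without control replicate 2 or 3 at 28 hpf, or control replicate 1 at 50 hpf, the 23 calls in control became 13, 15 and 14. Without the libraries high in muscle transcripts the calls numbered 5 in control and 13 in csf1rDM, with medians of -0.30 and -0.39. In control the muscle sums were at most 12.2 CPM at 28 hpf and over 1000 CPM in 2 of 3 libraries at 50 hpf. Their part in the decline with age was not tested beyond that fit.

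**Figure D3:**
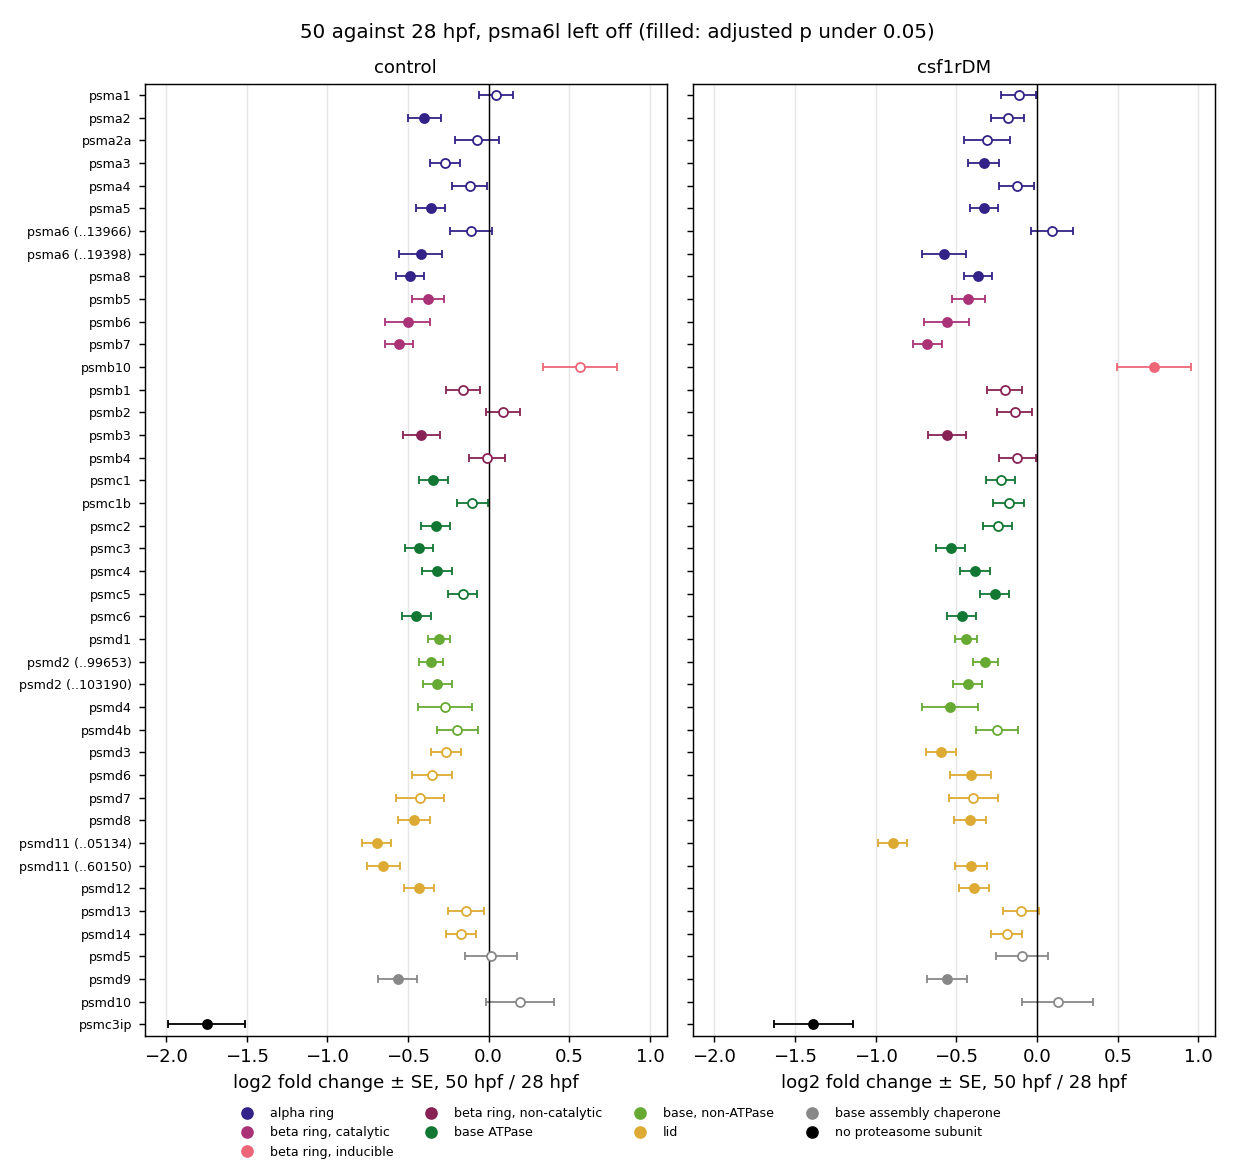
Log2 fold change of 50 over 28 hpf (x axis, ± SE) for each tested member, grouped by role, in control (left) and csf1rDM (right) macrophages; filled points had an adjusted p under 0.05. psma6l, at 3.11 and 2.87, is left off for scale; psmc3ip lies farthest left in both panels, with psmd11 (ENSDARG00000005134) next, and psmb10 lies right.

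Of the 39 structural subunits, 17 fell with age in both genotypes. Of all tested genes, 8.53% were called lower in both. No library enters both age comparisons. Across the 39 subunits, Pearson's r between them was 0.97 and Spearman's rho was 0.76. Without psma6l and psmb10 they were 0.76 and 0.72.

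Over all tested subunits the median change with age was larger in the regulatory particle than in the core, but in control this depended on 2 core genes. In the regulatory particle 12 of 21 subunits fell in control and 14 in csf1rDM, with medians of -0.33 and -0.40. In the core 8 of 18 subunits fell in each genotype, with medians of -0.22 and -0.26. Shares of all tested genes called lower with age were 11.4% in control and 14.4% in csf1rDM. The gap of 0.11 in control and 0.14 in csf1rDM rested on psma6l and psmb10, core genes at low levels, nearly wholly in control and in part in csf1rDM. Without them the core medians were -0.315 in control and -0.32 in csf1rDM, beside regulatory medians of -0.329 and -0.395. Summed regulatory expression declined by 21.3% in control and by 23.9% in csf1rDM, and summed core expression by 18.3% and 20.31%. The ratio of regulatory to core sums overlapped between the stages in control, with 1.51 to 1.65 at 28 hpf and 1.47 to 1.57 at 50 hpf. In csf1rDM it was lower in every later library, with 1.60 to 1.66 and then 1.51 to 1.59, a separation that was not tested.

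Within the core, the constitutive catalytic subunits psmb5, psmb6 and psmb7 fell with age in both genotypes. With a library left out, the calls in control were kept in 6 of 6 fits for psmb7, 2 of 6 for psmb6 and 3 of 6 for psmb5. In csf1rDM each was kept in 6 of 6. psmb7 declined by 0.56 in control and by 0.68 in csf1rDM, psmb6 by 0.50 and 0.56, and psmb5 by 0.38 and 0.43, all on the log2 scale (adjusted p = 5.25e-04 and 9.03e-05, 0.0194 and 0.00987, and 0.0171 and 0.00742, edgeR). psmb6 went from 86.1, 94.7 and 98.4 CPM to 56.5, 74.9 and 65.7 CPM in control, and from 67.6, 69.3 and 85.7 CPM to 45.6, 58.9 and 46.8 CPM in csf1rDM, without overlap between the stages. Of the non-catalytic beta subunits psmb3 alone fell in both genotypes, by 0.42 and 0.56. For psmb2 and psmb4 the values in control were 0.09 and -0.01 and did not pass, and both subunits fell by genotype at 50 hpf.

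In the lid, the largest decline with age was that of 1 of the 2 psmd11 genes. psmd11 helps to hold the lid on the base and the core. The gene ENSDARG00000005134 was at 206, 218 and 211 CPM in control at 28 hpf and at 120.5, 141 and 131.5 CPM at 50 hpf. In csf1rDM it went from 166, 170.4 and 184 CPM to 84.7, 94.2 and 101 CPM. The 4 groups were fully separated from each other, in the order control 28 hpf, csf1rDM 28 hpf, control 50 hpf, csf1rDM 50 hpf, and the decline was 0.69 ± 0.09 in control and 0.89 ± 0.09 in csf1rDM (log2 scale, SE; adjusted p = 1.19e-04 and 1.24e-05). psmd3 had values of -0.26 in control (adjusted p = 0.0605) and fell by 0.59 in csf1rDM (adjusted p = 4.45e-04). As above, its interaction did not pass.

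Several subunits were represented by more than one gene, and reads that copies share could have been split between them by the counting, so their values are uncertain. The other psmd11 gene, ENSDARG00000060150, was at 165, 160.5 and 162 CPM in control and 140.1, 117 and 109 CPM in csf1rDM at 28 hpf, and at 94.6, 112 and 103 against 92.4, 92.1 and 90.8 CPM at 50 hpf. It fell by genotype at 28 hpf (-0.42 ± 0.10, adjusted p = 0.0116) and was not called at 50 hpf (-0.17 ± 0.10, adjusted p = 0.276), but its interaction did not pass (0.24, adjusted p = 0.526). Its share of psmd11 expression was 43.4 ± 1.0% and 41.2 ± 4.3% in control and csf1rDM at 28 hpf, and 44.1 ± 0.3% and 49.7 ± 2.4% at 50 hpf (SD, n = 3). The shares did not overlap between genotypes at 50 hpf. The psma6 gene ENSDARG00000019398 fell with age in both genotypes (-0.42 and -0.58, adjusted p = 0.0384 and 0.00674) and by genotype at 50 hpf (-0.46, adjusted p = 0.0313). With a library left out, its age call was kept in 1 of 6 fits in control and 6 of 6 in csf1rDM. Its genotype call at 50 hpf was kept in 2 of 6. For its copy ENSDARG00000013966 the values lay between -0.23 and 0.09 in the 4 comparisons, with no call. The former held 66.04 ± 1.59%, 64.9 ± 2.8%, 61.1 ± 1.3% and 53.8 ± 3.3% of psma6 expression in control and csf1rDM at 28 hpf and control and csf1rDM at 50 hpf (SD, n = 3). These shares are descriptions with no test.

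The psma2 gene fell in csf1rDM at 28 hpf and with age in control (-0.36 and -0.40, adjusted p = 0.0242 and 0.0125). Its copy psma2a was not called in any comparison, with values from -0.31 to 0.00, and held 30.2% of their joint expression in control and 35.9% in csf1rDM at 28 hpf. At 50 hpf it held 35.2% in control and 33.7% in csf1rDM, with overlapping libraries. The ATPase gene psmc1 fell by 0.50 and 0.39 by genotype, and psmc1b, at -0.29 and -0.36, passed at 50 hpf (adjusted p = 0.0507 and 0.0179). The ubiquitin receptor psmd4b fell by genotype at both stages (-0.43 and -0.48, adjusted p = 0.0328 and 0.0185). It kept these calls in 2 of 6 and 3 of 6 fits with a library left out. Its copy psmd4, at 8.11 to 14.9 CPM, had values of 0.03 and -0.24 that did not pass, and fell with age in csf1rDM (-0.54, adjusted p = 0.0345). No interaction passed for any of these copies.

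**Figure D4:**
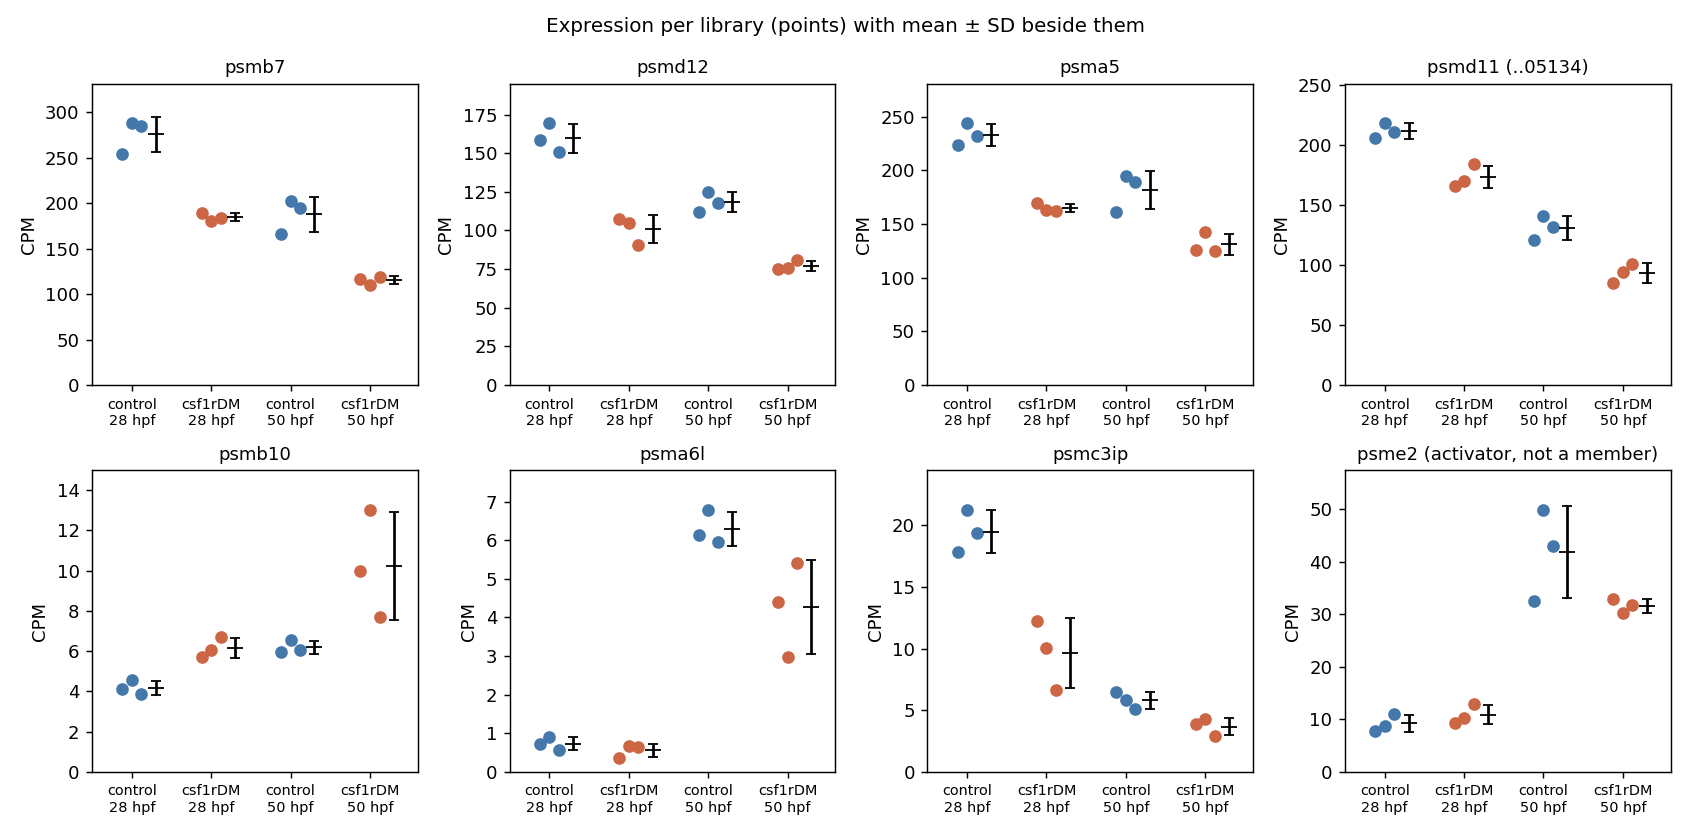
CPM (y axes, starting at 0) of 7 members and of the activator psme2 in each of the 12 libraries (points; blue control, orange csf1rDM), with the group mean and SD beside them. psmb7, psmd12, psma5 and psmd11 (ENSDARG00000005134) step down with genotype and age, psmb10 steps up, psma6l and psme2 are high at 50 hpf, and psmc3ip is highest in control at 28 hpf.

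The members that rose did so from low levels. psma6l, a psma6-like gene, was at 0.71, 0.90 and 0.56 CPM in control and 0.36, 0.68 and 0.64 CPM in csf1rDM at 28 hpf, which is 3 to 13 counts per library. At 50 hpf it was at 6.13, 6.79 and 5.95 CPM in control and 4.41, 2.98 and 5.41 CPM in csf1rDM. The stages were far apart in both genotypes. The genotypes overlapped at 28 hpf, and every csf1rDM library lay below the control libraries at 50 hpf. Its log2 change with age was 3.11 ± 0.39 in control and 2.87 ± 0.40 in csf1rDM. psma6l passed the filter on low counts only through its 50 hpf libraries, so no p-value is given for that rise. The genotype effects were not called (-0.32 and -0.56, adjusted p = 0.672 and 0.303, edgeR). psma6l made up 4.88% and 4.07% of the joint psma6 and psma6l expression in control and csf1rDM at 50 hpf.

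psmb10, the counterpart of psmb7 in the mammalian immunoproteasome, was at 4.12, 4.56 and 3.85 CPM in control and 5.71, 6.08 and 6.70 CPM in csf1rDM at 28 hpf, and at 5.94, 6.55 and 6.08 against 9.96, 13.03 and 7.71 CPM at 50 hpf. Every csf1rDM library lay above every control library of its stage, where psmb7 showed the reverse. The rise passed at 50 hpf (0.72 ± 0.23, adjusted p = 0.0402, edgeR) and with age in csf1rDM (0.73 ± 0.23, adjusted p = 0.0314). The first call was kept in 1 of 6 fits that left out a library of those groups and the other in 2 of 6. The remaining immunoproteasome symbols, which the rule left out, were scarcely detected: psmb8, psmb9, psmb12 and psmb13a had 15 to 24 counts each over all 12 libraries and did not enter the test. psmb11 and psmb11b, named for the mammalian thymus-specific catalytic subunit, did not pass the filter on low counts. psmb11 had 0 counts in all libraries and psmb11b had 5 in total.

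4 members are no structural subunits. psmd5, psmd9 and psmd10 encode chaperones that assemble the ATPase ring. psmd9 fell with age in both genotypes, by 0.56 each (adjusted p = 0.00467 and 0.00476), and was not called by genotype (-0.15 and -0.14). psmd10 was at 11.7, 16.6 and 15.0 CPM in control and 9.84, 10.2 and 9.13 CPM in csf1rDM at 28 hpf, without overlap, but did not pass at either stage (-0.57 ± 0.22 and -0.64 ± 0.22, adjusted p = 0.0829 and 0.0547). psmd5 was not called in any comparison. psmc3ip, taken in by its name, encodes a partner of meiotic recombinases and no part of the proteasome. It was at 17.8, 21.3 and 19.4 CPM in control and 12.3, 10.1 and 6.63 CPM in csf1rDM at 28 hpf, and at 6.44, 5.84 and 5.12 against 3.88, 4.26 and 2.89 CPM at 50 hpf. The groups were separated within each stage, with log2 fold changes of -1.02 ± 0.23 (adjusted p = 0.00836) and -0.66 ± 0.24 (adjusted p = 0.0792). With age it fell, with log2 fold changes of -1.75 in control and -1.39 in csf1rDM (adjusted p = 1.73e-04 and 0.00107).

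Among 16 tested proteasome partners, 5 fell in csf1rDM at 28 hpf, and 7 fell and 2 rose at 50 hpf, with medians of -0.21 and -0.38. Of all tested genes, 10.9% fell at 28 hpf, and 11.4% fell and 8.44% rose at 50 hpf. The core assembly chaperone psmg2 fell at both stages, from a mean of 31.1 to 19.0 CPM and from 30.1 to 20.0 CPM (-0.71 and -0.59, adjusted p = 0.00217 and 0.00625), and pomp, which matures the catalytic sites, at 50 hpf (-0.42, adjusted p = 0.0256). The deubiquitinases usp14 and uchl5, which trim chains on the regulatory particle, fell in all 4 comparisons. For uchl5 the log2 fold changes were -0.33 and -0.60 by genotype and -0.82 and -1.09 with age. akirin2, an importer of proteasomes into the nucleus, also fell in all 4, by 0.34 to 0.43. By contrast adrm1, a ubiquitin receptor of the base whose symbol lies outside the rule, rose at 50 hpf (0.32, adjusted p = 0.0362).

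The proteasome activators differed among themselves. psme1 and psme2 form the activator that interferon induces in mammals. psme2 was at 7.84, 8.77 and 11.04 CPM in control and 9.35, 10.3 and 12.8 CPM in csf1rDM at 28 hpf, and at 32.6, 50.0 and 43.1 against 32.96, 30.3 and 31.8 CPM at 50 hpf. It rose with age by 2.18 ± 0.19 in control and 1.54 ± 0.19 in csf1rDM (adjusted p = 3.62e-06 and 5.26e-05), and psme1 rose by 4.54 and 3.25 from 3 to 5 counts per library. psme1 passed the filter on low counts only through its 50 hpf libraries. psme3, which forms a nuclear activator, went the other way: it was at 135, 146 and 138 CPM in control and 80.7, 74.6 and 76.4 CPM in csf1rDM at 28 hpf (-0.85 ± 0.09, adjusted p = 5.59e-05) and fell by 0.39 at 50 hpf. The partner list had medians of -0.02 and 0.13 with age, with 5 of 16 genes lower in each genotype and 2 and 4 higher. Of all tested genes, 11.4% in control and 14.4% in csf1rDM were lower with age, and 12% and 13.3% higher. Because of that filter, a call of psme1 among the higher genes is no support for a rise.

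A list of 8 tested genes covered the pathway that drives proteasome genes in mammals, in which ddi2 cleaves and releases the transcription factor nfe2l1. It also held nfe2l2, mafg and mafk. In csf1rDM 1 of the 8, nfe2l2, rose and 2 fell at 28 hpf, and nfe2l2 rose and 1 fell at 50 hpf. Of all tested genes, 9.66% rose and 10.9% fell at 28 hpf, and 8.44% and 11.4% at 50 hpf. The falls include the mafg gene ENSDARG00000018109, which passed the filter on low counts only through the control libraries. nfe2l1b was not called by genotype and rose with age in csf1rDM (0.67 ± 0.17, adjusted p = 0.0101). nfe2l2, a related factor of the oxidative stress response, rose in all 4 comparisons. It was at 299.6, 309 and 298 CPM in control and 373, 423 and 415 CPM in csf1rDM at 28 hpf, and at 511, 467 and 471 against 539, 619 and 562 CPM at 50 hpf. Groups did not overlap within a stage, and the genotype effects were 0.42 ± 0.07 and 0.25 ± 0.07 (adjusted p = 0.00156 and 0.0293).

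Of 32 tested genes of ubiquitin and its delivery, 6 fell in csf1rDM at 28 hpf, and 8 fell and 2 rose at 50 hpf, with medians of -0.05 and -0.17. Of all tested genes, 10.9% and 11.4% were lower at these stages, and 16.4% and 17.6% of genes with at least 10 CPM. The shuttle factor rad23b had the largest declines by genotype, of 1.38 and 1.53 (adjusted p = 5.22e-04 and 2.04e-04). With age 10 fell in control and 11 in csf1rDM, beside 19.3% and 24.0% of genes with at least 10 CPM. The segregase vcp, which extracts ubiquitin-tagged proteins, went from 1000 ± 21 to 574 ± 27 CPM in control and from 902 ± 33 to 454 ± 27 CPM in csf1rDM (SD, n = 3; -0.80 and -0.99, adjusted p = 1.07e-06 and 1.98e-07).

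The decline of subunit transcripts was compared with other large complexes as a description. The cytosolic chaperonin CCT, which folds actin and tubulin, had medians near those of the proteasome: -0.33 and -0.29 by genotype and -0.26 and -0.29 with age, with 5, 5, 3 and 5 of 8 genes lower. In the same order 10.9%, 11.4%, 11.4% and 14.4% of all tested genes were lower. Cytosolic ribosomal proteins had medians of -0.15, -0.08, -0.19 and -0.13, with 3, 2, 5 and 4 of 78 genes lower. The 7 tested replication genes were all lower in each of the 4 comparisons, with medians of -0.87 and -1.60 by genotype and of -0.84 and -1.66 with age. Their sum was 3430 to 3702 CPM in control and 1620 to 2027 CPM in csf1rDM at 28 hpf, and 1687 to 2226 against 607 to 703 CPM at 50 hpf, and so separated the same groups as the proteasome sum. The macrophage marker sum moved the other way by genotype, but fell with age in both genotypes. At 28 hpf it was 22570 to 23340 CPM in control and 26710 to 27470 CPM in csf1rDM. At 50 hpf it was 16410 to 18020 and 20750 to 24290 CPM. Single markers went both ways. Of the 17 tested, 9 were higher and 3 lower in csf1rDM at 28 hpf, and 6 and 2 at 50 hpf. With age 4 were higher and 8 lower in control, and 5 and 9 in csf1rDM. In the same order 9.66%, 8.44%, 12% and 13.3% of all tested genes were higher. Neutrophil markers, 4 IDs all tested, summed to 88.9 to 472.9 CPM in control and 13.5 to 119.7 CPM in csf1rDM at 28 hpf, and to at most 30.2 CPM at 50 hpf. The 7 keratinocyte IDs, all tested, summed to 252.3 CPM in control replicate 1 and 441.4 CPM in csf1rDM replicate 1 at 28 hpf, to 23.2 to 46.8 CPM in the other libraries of that stage, and to 18.9 to 153.6 CPM at 50 hpf. The 7 erythroid IDs, 4 of them tested, summed to 40.1 CPM in control replicate 1 and 23.3 CPM in csf1rDM replicate 1 at 28 hpf. They summed to 1.73 to 3.58 CPM in the other libraries of that stage and to 3.64 to 48.7 CPM at 50 hpf. Without csf1rDM replicate 1 the median of members at 28 hpf was -0.40 in place of -0.31. The 6 yolk and liver IDs, 3 of them tested, summed to 56.3 to 61.0 CPM in control and 60.1 to 115.3 CPM in csf1rDM at 28 hpf, and to 1.43 to 2.30 and 4.37 to 13.9 CPM at 50 hpf. That sum was lower at 50 hpf in every library of both genotypes and separated the genotypes at 50 hpf, while the liver marker fabp10a was at most at 0.22 CPM in any library. Single yolk and liver IDs went both ways. Of the 3 tested, 2 were lower in csf1rDM at 28 hpf and 1 was higher at 50 hpf. With age 2 were lower in control, and 1 was lower and 2 higher in csf1rDM, beside the shares of all tested genes given above. The part of these shifts in the subunit values was not tested.

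**Figure D5:**
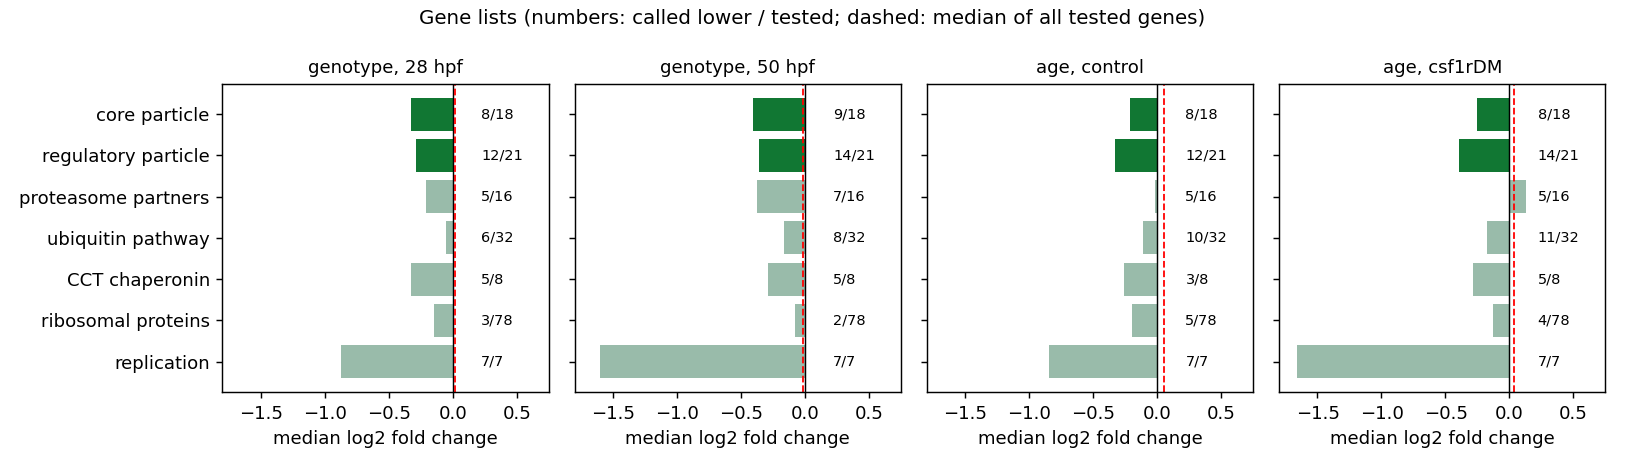
Median log2 fold change (bars) of the core particle, the regulatory particle and 5 other gene lists in the 4 comparisons, with the number of genes called lower over the number tested beside each bar; the dashed line is the median of all tested genes. The 2 particles and the CCT chaperonin lie between -0.22 and -0.41, ribosomal proteins nearer 0, and replication genes far below.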

How the data were processed

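Macrophages were sorted as mpeg-GFP+ cells into Trizol, cDNA was amplified with a SMART-seq v4 kit and libraries were sequenced as read pairs. The deposited values are raw whole-number counts per Ensembl gene made by the authors, with no normalisation. The submitters' processing notes name CASAVA 1.8, cutadapt, STAR 2.5.4b, Cufflinks 2.2.1, HTSeq 0.11.0 and edgeR with the GRCz10 assembly. Strand setting and annotation release were not given in the sources used here, so overlapping, antisense and near-identical genes are uncertain. Amplified cDNA without molecular identifiers means that depth covers counting error only.

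Groups and replicate numbers came from the sample labels. Symbols were matched, ignoring case, from a table of Ensembl names, which covered 27000 of 35117 IDs. The symbols PSMB8 and PSMB9 of that table were taken as psmb8a and psmb9a. The filterByExpr step by group kept 16429 genes for edgeR 4.0.16 (R 4.3.3), whose quasi-likelihood test was run on TMM-scaled counts. A single fit held all 12 libraries, with 1 mean for each of the 4 groups. Adjusted p-values are Benjamini-Hochberg values over the 16429 genes. The main call was an adjusted p under 0.05, since subunits of an abundant complex change by less than the fold limit of the study, and the study's thresholds were counted beside it. The test was checked on simulated counts. Genes were named by role or as the 3 largest rises and falls among called members of a comparison, and genes of the lists where called. Replicates differed beyond sampling noise (chi-square per degree of freedom 5.17 to 24.6) and were counted separately. Alternatives were DESeq2 1.42.0, its size factors, other filters, only the groups compared, a replicate block, each library left out, and, chosen after seeing the data, the 4 libraries with muscle marker sums over 1000 CPM left out. The members and lists were chosen with earlier results of these data known.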

Additional observations from a re-analysis of the deposited data

How the results depend on the processing

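The median log2 fold change of members stayed below 0 in the 4 comparisons by genotype or age under all alternatives run, and no called member changed its direction. Leaving out a library gave medians from -0.503 to -0.335 for genotype at 50 hpf, the lowest without control replicate 1, from -0.403 to -0.282 at 28 hpf, the lowest without csf1rDM replicate 1, and from -0.142 to 0.043 for the interaction. Counts of called members depended on the libraries: 9 to 27 and 11 to 28 by genotype at 28 and 50 hpf, and 13 to 22 and 21 to 27 with age in control and csf1rDM. In these left-out fits 9 of 21, 11 of 24, 13 of 23 and 21 of 26 calls were kept throughout. With the thresholds of the study the counts were 1, 0, 2 and 2. Without a filter 13 members were called at 28 hpf, and with only the groups compared 13 at 50 hpf. Without the libraries high in muscle transcripts the counts were 8, 6, 5 and 13. The cause was not tested, beyond fewer samples or a stricter threshold where the alternative has one. DESeq2 called 26, 24, 27 and 27 members.

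The regulatory minus core median with age was -0.11 in control and -0.14 in csf1rDM. It was -0.17 and -0.084 without a filter and -0.059 and -0.086 with at least 10 counts in every library, a filter that removes psma6l. Leaving out a library gave -0.171 to -0.08 in control, 0.007 to 0.094 for genotype at 50 hpf and -0.016 to 0.05 for the interaction, which was 0.063 without the libraries high in muscle transcripts.

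A replicate block gave 19, 22, 25 and 26 calls. The replicate numbers gave no clear pairing: 4 of 18 same-numbered pairs had deviations correlated over 0.1, with a range from -0.36 to 0.17. Replicates 1 of control at 28 hpf and of csf1rDM at 28 and 50 hpf correlated with each other at 0.131 to 0.168. Their values with control replicate 1 at 50 hpf lay between -0.106 and 0.038. Pairs with different numbers ranged from -0.236 to 0.282, and the difference between both kinds of pair was not tested. Other size factors moved the median of all genes by at most 0.06. Genes under about 10 counts per library, such as psma6l at 28 hpf, carry wide counting error.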

Other observations

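One of the 2 IDs of mafg, a small Maf protein that pairs with factors of the nfe2l family in mammals, separated the genotypes widely. The mafg gene ENSDARG00000018109 was at 9.98, 7.32 and 8.31 CPM in control and 0.12, 0.14 and 0.14 CPM in csf1rDM at 28 hpf, and at 8.25, 7.75 and 8.44 against 0.62, 0.16 and 1.04 CPM at 50 hpf. It passed the filter on low counts only through the control libraries, where it was high. The other mafg ID, ENSDARG00000100097, was at 9.82, 10.98 and 10.42 CPM in control and 11.17, 23.37 and 11.69 CPM in csf1rDM at 28 hpf, where each csf1rDM library lay above the control libraries, and overlapped between the genotypes at 50 hpf. It was not called at either stage (adjusted p = 0.245 and 0.846, edgeR). The first of these genes was singled out after its values were seen, so no p-value is given for it.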
